A study of Mus musculus with 8 samples.

Results

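Autophagy genes linked to the granules of Paneth cells (PCs) were followed in RNA-seq of sorted mouse PCs. The 10 genes were Atg16l1, Atg5, Atg7, Atg4b, Map1lc3b, Gabarapl1, Sqstm1, Becn1, Ulk1 and Lrrk2. They were listed by name as core autophagy genes and Lrrk2 known for PC granule packaging. The rule of choice did not use their values, but earlier results of these data were known when they were chosen. They are 10 of the 55414 genes in the count table, and together they held 0.117% of all counts. PCs were sorted by FACS from the small intestine of 8 mice, C57BL/6J per the methods of the study. For 7 days, 4 mice drank Milli-Q water, which is purified water, and the other 4 drank the same with 25 mM ZnSO4. All 8 mice, controls included, were then injected with TNF (tumor necrosis factor), a cytokine of inflammation, and the cells were collected 3 hours later. By the sample records no library here comes from a mouse without TNF, so the values describe PCs after TNF injection only. In zinc replicate 3, targets of NF-kB, a factor that TNF activates, were low, as given below. There were 4 libraries and 4 mice per group, and age is not stated in the sources.

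Autophagy encloses cytoplasm or granules in a double membrane, the autophagosome, and delivers them to the lysosome. ULK1 starts the process, Beclin 1 with the lipid kinase VPS34 marks the growing membrane, and a conjugation machinery of ATG7, ATG5 and ATG16L1 attaches small ubiquitin-like proteins of the ATG8 family (LC3 and GABARAP proteins) to it. PCs are known for their dependence on this machinery: mice with low ATG16L1, or without ATG5 or ATG7 in the gut epithelium, have abnormal PC granules, and lysozyme can leave PCs by a secretory form of autophagy.

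The libraries held 10623658 to 15101627 counts. Levels of 1 gene are given in CPM, counts rescaled to a common library size with TMM factors, and levels of different genes are compared only in TPM, which also divide by transcript length. Markers of PCs were high in every library, with a sum of 396277 to 744714 CPM over 12 genes. Of 18 leukocyte markers, 16 had 24 counts or fewer over the 8 libraries and 8 of these had none, while Lyz2 had 1981 and Igkc 40. All 9 stromal and endothelial markers had 24 counts or fewer. Markers of other epithelial cells were present in every library. Goblet cell markers summed to 11007 to 16253 CPM over 12 genes and crypt stem cell markers to 463 to 1178 CPM over 10 genes. Enterocyte markers summed to 313 to 754 CPM and enteroendocrine and tuft cell markers to 17.7 to 37.1 CPM, each over 12 genes. Mt1, a metallothionein induced by zinc, measured 254, 107, 29.5 and 45.0 CPM in zinc libraries 1 to 4, against 36.0 to 68.2 CPM in the water group, so zinc replicates 3 and 4 did not lie above the water range for this gene. Zinc replicate 3 stood apart across the transcriptome: 29.97% of the 10707 tested genes had their lowest level in it and 29.8% their highest. In Milli-Q water replicates 3 and 4, deviations from the gene mean fell with transcript length (Spearman rho across genes -0.33 and -0.34, against 0.00052 to 0.25 in the other 6 libraries, a description over genes that share their libraries). For some genes the change without these libraries is given beside the value over all 8.

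Of the 10 members, 9 had counts and passed the filter on low counts, and Lrrk2 had none. Sqstm1, which encodes the cargo receptor p62, had the highest level per length, and Ulk1 the lowest of those detected. With zinc, 7 of the 9 tested members had a lower fitted level and 2, Atg7 and Ulk1, a higher one. By edgeR 0 of the 9 passed the test, beside 0% of all tested genes, and 0 did by DESeq2 or limma-voom. Sqstm1 was at 231 CPM in zinc replicate 3 and at 910.4 to 1013 CPM in the other 7 libraries, the widest departure of a single library among the members.

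Levels per length fell in a clear order at the top. Mean TPM over the 8 libraries was 212 ± 73.0 for Sqstm1, 59.4 ± 9.51 for Map1lc3b, 22.5 ± 4.49 for Gabarapl1 and 10.4 ± 2.18 for Becn1 (SD, n = 8). Lower were Atg7 with 7.82 ± 2.60 TPM, Atg5 with 7.09 ± 1.20, Atg16l1 with 4.45 ± 1.32, Atg4b with 4.35 ± 0.896 and Ulk1 with 2.99 ± 1.13. Thus the cargo receptor and the 2 ATG8 genes lay above the genes of the conjugation enzymes. Sqstm1 ranked 69 among 14018 protein-coding genes with counts, Map1lc3b 293, Gabarapl1 885 and Ulk1 5173. Some neighbours could not be ordered. Atg16l1 was above Atg4b in 4 of 8 libraries and Atg7 above Atg5 in 5 of 8. Sqstm1 was above Map1lc3b in 7 of 8, the exception being zinc replicate 3, Becn1 was above Atg7 in 7 of 8, and Atg4b above Ulk1 in 7 of 8. The order of Map1lc3b over Gabarapl1, of Gabarapl1 over Becn1 and of Atg5 over Atg16l1 held in 8 of 8. Length matters here: with the length of all annotated exons in place of the canonical transcript, Gabarapl1 (12.9 TPM) lay above Map1lc3b (8.04 TPM), and Atg16l1 became the lowest (1.22 TPM). TPM are shares of a total that PC products dominate, and leaving alpha-defensins and Lyz1 out of that total raised Sqstm1 to 1087 and Ulk1 to 15.3 TPM.

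**Figure D1:**
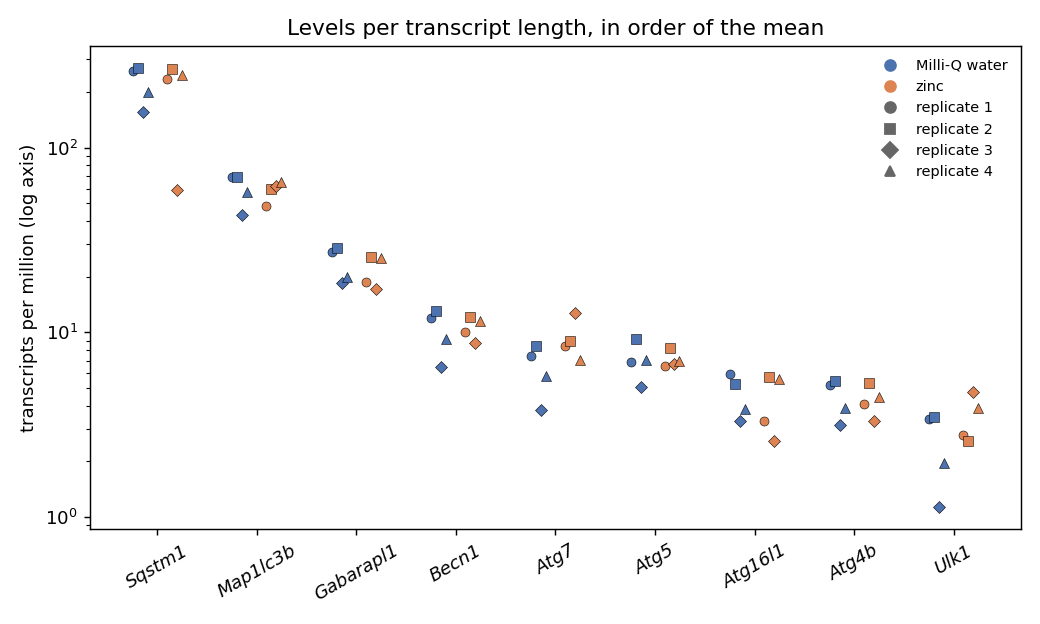
TPM (log axis) of the 9 detected members in each of the 8 libraries, in order of their mean, with Milli-Q water in blue, zinc in orange and the marker shape giving the replicate number. Sqstm1 lies highest in every library except zinc replicate 3 (58.8 TPM, against 62.2 TPM for Map1lc3b there), and the points of Atg16l1 and Atg4b overlap.

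Ulk1 encodes the kinase that starts autophagosome formation when nutrients are short (ENSMUSG00000029512, chromosome 5, 110931496 to 110957995, minus strand, GRCm39, 28 exons). The Milli-Q water libraries 1 to 4 gave 23.1, 22.5, 12.9 and 17.99 CPM and the zinc libraries 1 to 4 gave 21.4, 16.4, 34.6 and 29.6 CPM. Zinc replicates 3 and 4 were above every water library, zinc replicates 1 and 2 within the water range, and the lowest value was Milli-Q water 3. The log2 fold change, zinc over water, was 0.41 (SE 0.253, 95% interval -0.15 to 0.97, edgeR adjusted p 0.534). The canonical transcript of Ulk1 has 6084 bases. In the 2 libraries whose deviations fall with length it was at 12.9 CPM (Milli-Q water 3) and 17.99 CPM (Milli-Q water 4), the latter above zinc replicate 2, and the part of length in these values was not tested beyond the correction that follows. With a correction for length and GC content the change was 0.24, without Milli-Q water replicates 3 and 4 it was 0.15, and without these and zinc replicate 3 it was -0.02. The limma-voom fit with sample weights also gave a value below 0, -0.04.

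Becn1 encodes Beclin 1, the scaffold of the VPS34 lipid kinase (ENSMUSG00000035086, chromosome 11, 101176769 to 101193122, minus strand, 12 exons). It was at 58.6, 60.3, 53.0 and 60.2 CPM with water and at 55.0, 55.0, 46.2 and 63.4 CPM with zinc. The groups overlapped, and zinc held both the lowest and the highest library. The change was -0.08 (SE 0.136, 95% interval -0.38 to 0.22, adjusted p 0.819), and -0.0022 without zinc replicate 3. This was the smallest change among the 9 tested members. Its exons overlap those of Cntd1 on the other strand by 2361 bases. The kit keeps strand, but the strand setting of the counting is not stated.

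Atg7 encodes the E1-like enzyme that activates ATG8 proteins and ATG12 (ENSMUSG00000030314, chromosome 6, 114620044 to 114837576, plus strand, 19 exons). Its levels were 31.0, 33.8, 27.0 and 32.7 CPM with water and 39.7, 35.0, 57.8 and 33.5 CPM with zinc. Zinc replicates 1, 2 and 3 were above every water library and zinc replicate 4 was just within their range, so the groups touched. The change was 0.41, a fold of 1.33 (SE of the log2 value 0.185, 95% interval 0.0053 to 0.82). By edgeR, Atg7 alone had an unadjusted p under 0.05 (0.0476), 1 of 9 tested members, where 10.2% of all tested genes had one. After adjustment over all genes its p was 0.485. Without zinc replicate 3 the change was 0.21, with every level of the remaining zinc libraries between 33.5 and 39.7 CPM. It stayed above 0 under all 19 alternatives, between 0.16 and 0.50.

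Atg5 forms, with ATG12 and ATG16L1, the complex that places ATG8 proteins on the membrane (ENSMUSG00000038160, chromosome 10, 44142076 to 44240308, plus strand, 8 exons). It was at 18.4, 23.2, 22.6 and 25.4 CPM with water and 19.6, 20.3, 19.4 and 21.0 CPM with zinc. The 4 zinc libraries lay close together inside the water range, below 3 of the 4 water libraries. The change was -0.16 (SE 0.133, adjusted p 0.623), -0.06 without Milli-Q water replicates 3 and 4, and -0.02 with the correction for length and GC content.

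Atg16l1, which directs that complex to the membrane and whose human relative carries a Crohn's disease risk allele, is on chromosome 1 (ENSMUSG00000026289, 87683592 to 87720150, plus strand, 17 exons). The water libraries gave 20.9, 17.7, 19.7 and 18.1 CPM and the zinc libraries 13.2, 18.8, 9.82 and 22.2 CPM. Water libraries were close together, while zinc replicates 1 and 3 were below all of them and zinc replicate 4 above all of them. The SD of log2 CPM was 0.52 with zinc and 0.11 with water, against medians over all tested genes of 0.33 and 0.25. The change was -0.26 (SE 0.228, 95% interval -0.76 to 0.25, adjusted p 0.640), and -0.07 without zinc replicate 3.

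Sequence just upstream of the RefSeq start holds the letters CACGTG, an E-box that TFEB and other basic helix-loop-helix factors can bind, in Atg7 and Atg5, and these stretches are shown because both genes act in the conjugation machinery and had fitted changes of opposite sign, neither past the test. The stretch of Atg7 is chr6:114647913-114647942 on the plus strand, 144 to 115 bases upstream of that start, and that of Atg5 is chr10:44144305-44144334 on the plus strand, the last 30 bases before it (GRCm39, capitals mark the E-box).
Atg7: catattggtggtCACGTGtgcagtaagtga
Atg5: agggcggagcgcttgcCACGTGgtcttggt
The windows came from a RefSeq promoter table of GRCm38.p6 and were placed on GRCm39 by exact match. In windows of 250 bases, the E-box was found in 2 of the 8 members in the table and in 6.02% of all 32841 windows (both strands). The RefSeq start of Atg7 at 114648057 lies downstream of the start of the GENCODE canonical transcript at 114620058. The canonical start of Atg5, 44144326, lies inside its printed stretch, at the last base of the E-box. Of the 250 bases of the Atg5 window, 215 lie in annotated exons, of Atg5 or of other genes. A match in letters is a description and not a bound site.

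Atg4b encodes a protease that trims ATG8 proteins before conjugation and frees them again (ENSMUSG00000026280, chromosome 1, 93679222 to 93718332, plus strand, 13 exons). With water it was at 25.0, 24.9, 25.4 and 25.1 CPM, and with zinc at 22.3, 23.7, 17.2 and 24.2 CPM. Every zinc library was below every water library. It was the only tested member whose groups did not overlap, 1 of 9, where 5.87% of all tested genes had groups that did not overlap. The change was -0.20, a fold of 0.870 (SE of the log2 value 0.137, 95% interval -0.50 to 0.10, adjusted p 0.562), so it did not pass the test. The water libraries had an SD of 0.011 on the log2 scale, against a median of 0.25 over all tested genes. Their Atg4b counts were 366, 418, 206 and 314, and counting error alone at such counts is wider than this SD. Zinc replicate 4 (24.2 CPM, 300 counts) lay close to Milli-Q water replicate 2 (24.9 CPM), a gap within counting error. Without zinc replicate 3 the groups still did not overlap and the change was -0.10.

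Map1lc3b encodes LC3B, the ATG8 protein most used to mark autophagosomes (ENSMUSG00000031812, chromosome 8, 122317100 to 122325499, plus strand, 4 exons). Its levels were 68.9, 65.6, 72.1 and 77.2 CPM with water and 54.1, 55.5, 66.7 and 72.9 CPM with zinc. Zinc replicates 1 and 2 were below all water libraries and zinc replicates 3 and 4 were within their range. The change was -0.19 (SE 0.143, 95% interval -0.50 to 0.13, adjusted p 0.598). With the correction for length and GC content it was -0.12, and without Milli-Q water replicates 3 and 4 it was also -0.12. The canonical transcript of Map1lc3b, with 889 bases, is the shortest among the members. Of its words of 75 bases, 23.9% also occur in transcripts of Gm12727, Gm6054 or Gm6055, so its count is uncertain to the extent that shared reads were dropped or divided. No other member shared such words with another gene.

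Gabarapl1 encodes a GABARAP-type ATG8 protein (ENSMUSG00000030161, chromosome 6, 129509725 to 129520544, plus strand, 4 exons). It was at 55.0, 55.1, 62.9 and 54.4 CPM with water and at 42.7, 48.1, 37.5 and 57.9 CPM with zinc. Zinc replicates 1, 2 and 3 were below every water library, and zinc replicate 4 was within the water range. The change was -0.29, a fold of 0.819 (SE of the log2 value 0.155, 95% interval -0.63 to 0.055, adjusted p 0.503), and -0.19 without zinc replicate 3. Its exons overlap those of 1700101I11Rik on the other strand by 555 bases.

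All 5 ATG8 genes had fitted changes below 0, between -0.29 and -0.11, and none passed the test. Lower fitted levels were found for 5263 of all 10707 tested genes. Gabarap was at 157, 136, 147 and 192 CPM with water and at 143, 139, 138 and 168 CPM with zinc. Its groups overlapped, and its highest level was in Milli-Q water replicate 4, whose deviations fall with length. Without Milli-Q water replicates 3 and 4, the change was -0.12 for Map1lc3b and -0.25 for Gabarapl1. Per length of the canonical transcript, Gabarap (68.7 ± 11.1 TPM) and Map1lc3b were the most abundant of the family, with 41.3% ± 2.22 and 35.8% ± 1.93 of its summed TPM (SD, n = 8). That order depends on the length used. With the length of all annotated exons, Gabarapl1 (12.9 TPM) lay above Map1lc3b (8.04 TPM), and the shares were not computed with that length. Gabarapl1 held 13.6% ± 1.64, Map1lc3a 6.66% ± 0.623 and Gabarapl2 2.74% ± 0.324. The share of Gabarapl1 was 14.2% ± 1.64 with water and 12.9% ± 1.595 with zinc (SD, n = 4), a difference smaller than the SD within either group.

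**Figure D2:**
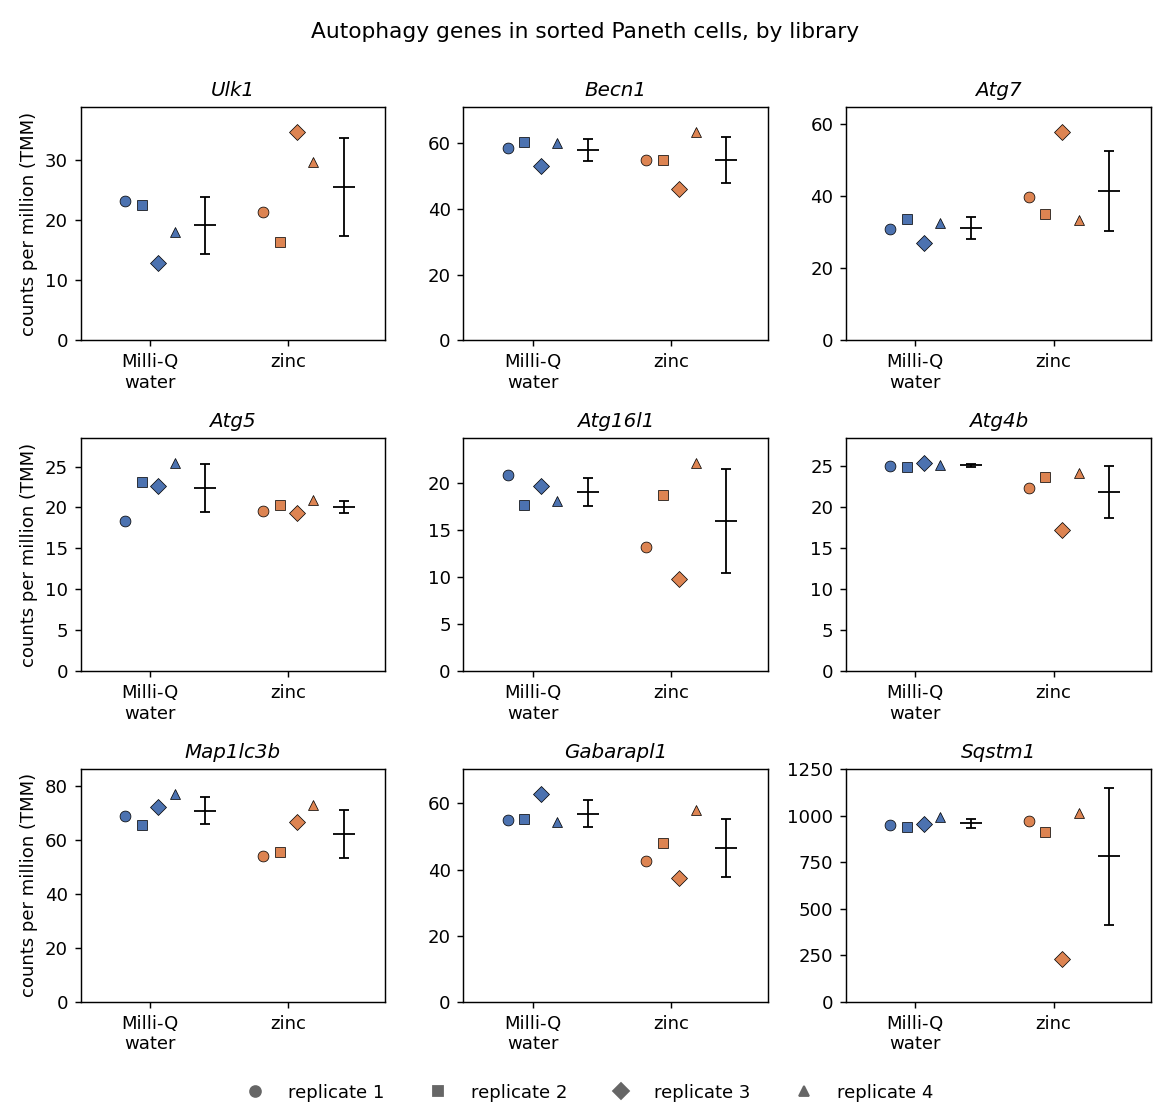
CPM on the TMM scale of the 9 detected members in each library, with Milli-Q water in blue, zinc in orange, the marker shape giving the replicate number, and bars for the mean and SD of each group (n = 4). Sqstm1 is at 910.4 to 1013 CPM in 7 libraries and at 231 CPM in zinc replicate 3 (diamond), and the 4 zinc points of Atg4b lie below the 4 water points.

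Sqstm1 encodes p62, which links ubiquitinated cargo to ATG8 proteins, binds KEAP1, the inhibitor of NRF2, and takes part in NF-kB signaling (ENSMUSG00000015837, chromosome 11, 50089572 to 50107684, minus strand, 8 exons). The Milli-Q water libraries gave 948, 939, 954 and 990.2 CPM and the zinc libraries 969, 910.4, 231 and 1013 CPM. Of the 8 libraries, 7 lay within 1.11-fold of each other and both groups were represented among them, while zinc replicate 3 was at 0.241 of their geometric mean. The log2 fold change over all 8 libraries was -0.29 (SE 0.367, 95% interval -1.11 to 0.52, adjusted p 0.746). Without zinc replicate 3 it was 0.01 (SE 0.123), close to 0. Across the other 7 libraries the SD of log2 CPM of Sqstm1 was 0.051, against a median of 0.26 over all tested genes. Its exons overlap those of Mrnip by 796 and of Mgat4b by 141 bases on the other strand.

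In zinc replicate 3, 5 of the 9 tested members had their lowest level of the 8 libraries (Atg16l1, Atg4b, Gabarapl1, Sqstm1 and Becn1), where 29.97% of all tested genes did. Atg7 and Ulk1 had their highest level there, 2 of 9, where 29.8% of all tested genes did. The difference of Sqstm1 was the largest: its log2 CPM minus the mean of the other 7 was -2.05, and 3.34% of tested genes lay further below. The differences of the other 8 members lay between -0.90 (Atg16l1) and 0.80 (Atg7), and those of Map1lc3b and Atg5 were 0.01 and -0.14.

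Other genes were then set beside Sqstm1 in this library, chosen after their values were seen. Targets of NF-kB, the factor that TNF activates, were lower still. Nfkbia, the NF-kB inhibitor that NF-kB itself induces, was at 28.6 CPM against 434 to 534 in the other 7 libraries. Tnfaip3, a further feedback inhibitor, was at 2.46 against 74.6 to 102 CPM. Nfkb2 and Birc3 were at 25.3 against 222 to 271 CPM and at 9.19 against 198 to 257 CPM. Targets of NRF2, which p62 can release from KEAP1 and which induces Sqstm1, were mostly low as well. Of the 5 that passed the filter, 4 were lowest in this library, where 29.97% of all tested genes were. As these targets were picked after values were seen, the count is a description only. Gclc was at 35.2 CPM against 287 to 471 and Txnrd1 at 93.0 against 172 to 296. Srxn1 was at 15.4 against 20.1 to 27.6 CPM and Hmox1 at 4.28 against 6.47 to 18.1, whereas Gclm was the highest of the 8 libraries at 19.9 against 9.91 to 14.4 CPM. Keap1 (31.3 CPM) and Nfe2l2 (32.3 CPM), which encodes NRF2, were within the range of the other libraries. Markers of other cells also differed in this library. Its enterocyte marker sum was 754 CPM against 313 to 432 CPM in the other 7 libraries over 12 genes, and its crypt stem cell sum was 1178 CPM over 10 genes, against 463 to 649 CPM with water and 529 to 1142 CPM in the other zinc libraries, so a high sum was not particular to it. Its enteroendocrine and tuft cell sum was 37.1 CPM over 12 genes, against 17.7 to 33.1 CPM in the other 7. The goblet cell sum (11362 CPM, others 11007 to 16253) and the Paneth cell sum (471618 CPM) were within range. In bulk samples, fewer cells of a type and less RNA per cell cannot be told apart. The part of these markers, and of the exposure of this mouse to TNF, in the level of Sqstm1 was not tested.

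**Figure D3:**
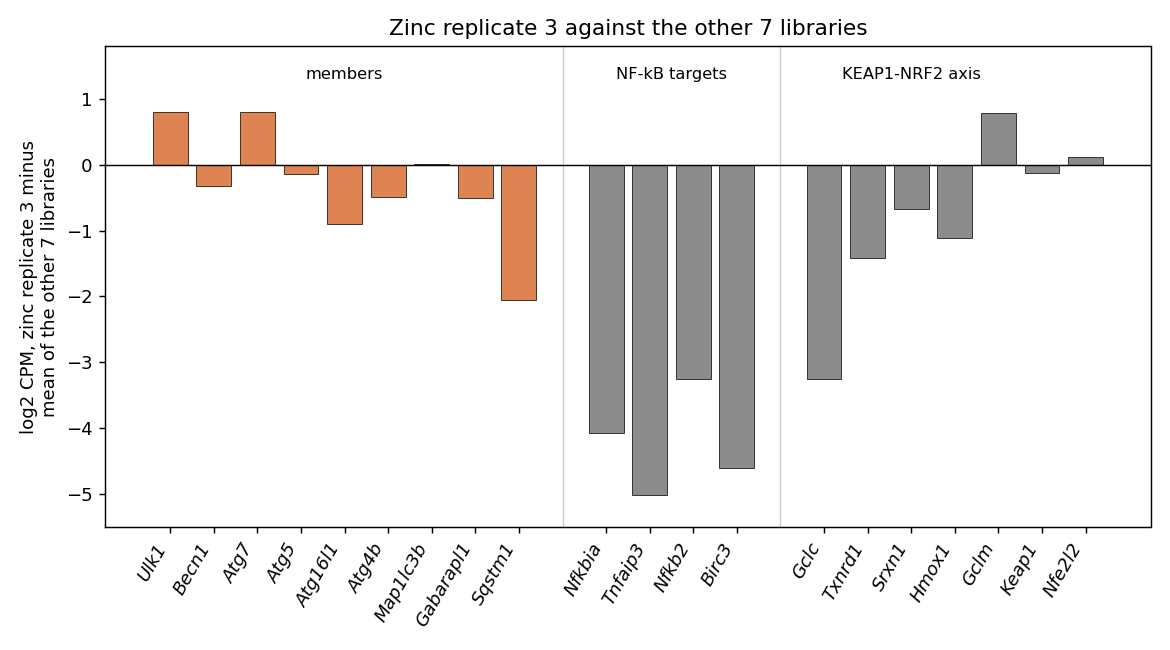
Difference in log2 CPM between zinc replicate 3 and the mean of the other 7 libraries for the 9 detected members (orange) and for NF-kB targets and genes of the KEAP1-NRF2 axis (grey, chosen after their values were seen). Sqstm1 is the member with the largest difference, -2.05, and the 4 NF-kB targets lie between -5.01 and -3.25.

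The stretch before the RefSeq start of Sqstm1 is shown because NF-kB targets were low in the same library. It is chr11:50101648-50101677 on the minus strand (GRCm39), the last 30 bases before that start, and capitals mark the match to the NF-kB consensus, 18 to 9 bases upstream.
Sqstm1: cccccacgaggcGGGGCTCCCCcgttttct
The NF-kB consensus was found on either strand in 1 of the 8 members in the table and in 3.90% of all windows. The antioxidant response element core TGACNNNGC was in 0 of the 8 and in 10.2% of all windows, the TATA box TATAAA in 0 of 8 and in 12.4%, and the GC box GGGCGG in 7 of 8 and in 32.8%. The GC boxes of Sqstm1, at 72 to 67, 53 to 48 and 33 to 28 bases upstream, do not overlap the NF-kB match. Atg16l1 and Becn1 are not in the table. The GENCODE canonical start of Sqstm1 (50102885) lies upstream of its RefSeq start (50101647), so the printed stretch is downstream of the canonical start. All 250 bases of the Sqstm1 window lie in annotated exons, of Sqstm1 or of other genes. The match is in letters only, and its part in the level of Sqstm1 was not tested. A motif outside the 250 bases was not looked for.

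Profiles most like those of the 3 members with the widest spread were found by the root mean square (RMS) difference of centred log2 CPM over the 8 libraries, among 10706 genes. Nearest to Sqstm1 were Wars1, a tryptophan tRNA synthetase (RMS difference 0.057), and Efhd2, a calcium-binding protein (0.084). Wars1 was at 304 CPM in zinc replicate 3 and at 1109 to 1302 CPM elsewhere, and Efhd2 at 60.3 and 211 to 241 CPM, so the likeness rests on that library. Nearest to Ulk1 were Gigyf1 (0.092) and Deaf1 (0.14). Nearest to Atg16l1 were Ckap4 (0.081), a protein of the rough endoplasmic reticulum, and Hid1 (0.085), which acts in secretory granule formation. Hid1 was at 155 CPM in zinc replicate 3 and at 242 to 361 CPM in the others.

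Lrrk2 encodes a kinase of RAB GTPases that has been linked to lysozyme sorting in PCs and to Crohn's disease (ENSMUSG00000036273, chromosome 15, 91557083 to 91700604, plus strand, 51 exons). It had 0 counts in each of the 8 libraries. A count of 0 allows up to 3 counts, which is 0.179 to 0.369 CPM or 0.0180 to 0.0252 TPM per library, for counting error only. Its transcripts were thus not detectable at this depth in either group, and no fold change can be given. Lrrk1, the related kinase, was detected at a mean of 1.63 TPM, with 12.9 ± 2.53 CPM in the water group and 16.9 ± 1.83 CPM in the zinc group (SD, n = 4, log2 fold change 0.38, SE 0.166, adjusted p 0.485).

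Over the 9 tested members, the median log2 fold change was -0.19, beside 0.0062 over all 10707 tested genes, and adjusted p ran from 0.485 to 0.819. Without zinc replicate 3 the median was -0.07 beside 0.0042. Across the 19 alternatives the sign held for 7 of the 9 members, and it turned for Sqstm1 and for Ulk1.

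**Figure D4:**
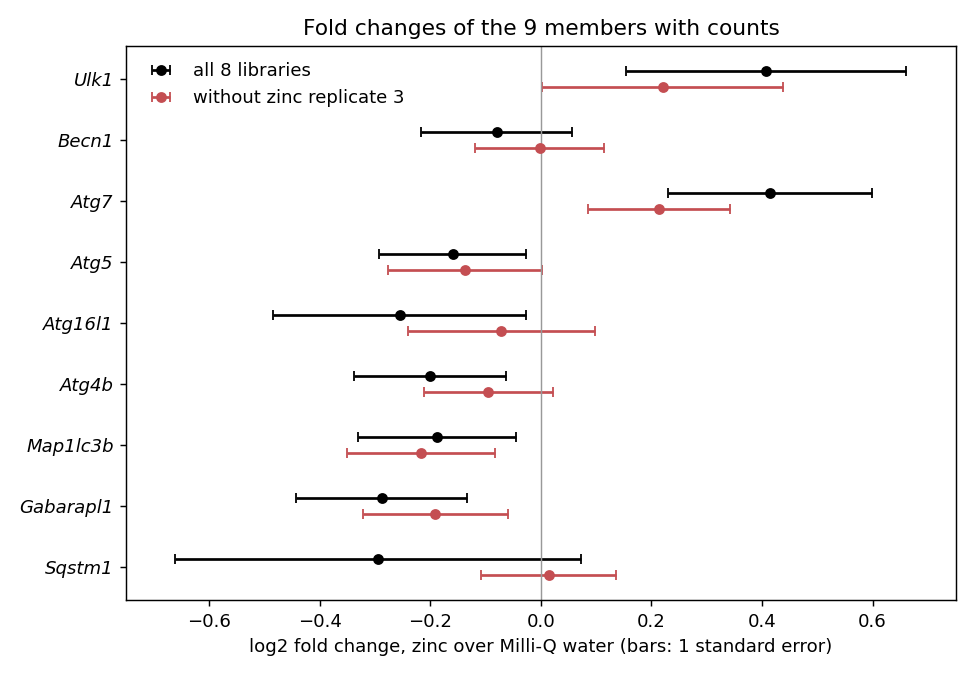
Log2 fold change, zinc over Milli-Q water, of the 9 tested members with 1 standard error, for all 8 libraries (black) and without zinc replicate 3 (red). Leaving out this library moves Sqstm1 from -0.29 to 0.01 and Atg7 from 0.41 to 0.21.

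The other genes of the pathway were read from 11 lists with 116 genes, members included, of which 114 were tested. Of these, 49 were higher and 65 lower with zinc, and none passed the test in either direction by edgeR, DESeq2 or limma-voom. An unadjusted p under 0.05 was found by edgeR for 5 genes, 4 higher and 1 lower, by DESeq2 for 6 and by limma-voom for 14. Over all tested genes edgeR gave 687 higher and 405 lower, a share of 10.2%, DESeq2 6.86% and limma-voom 12.4%, so the 5 of 114 were below that share and the 14 close to it. Without zinc replicate 3, 52 of the 114 were higher and 62 lower. The median change of the 105 tested genes that are no members was -0.04. In the ULK complex, Atg101, which stabilizes ATG13, was at 11.6, 12.98, 10.95 and 12.2 CPM with water and at 6.84, 7.67, 8.77 and 9.84 CPM with zinc. Every zinc library was below every water library, and the change was -0.52 (SE 0.161, unadjusted p 0.0080, adjusted p 0.485), and -0.55 without zinc replicate 3. Ulk2, the paralog of Ulk1, had a change of 0.50 (SE 0.204, adjusted p 0.485). Of the Beclin 1 and VPS34 genes, 3 of 8 were higher and 5 lower, from Nrbf2 (-0.25) to Atg14 (0.43). Nrbf2 was at 10.7 CPM in zinc replicate 3 and at 17.5 to 20.2 CPM in the others, and without that library its change was -0.08 and the list had 4 higher and 4 lower. Of the genes of ATG9 and lipid supply, 3 of 9 tested were higher and 6 lower, with Wipi1 at 0.23 and Wdr45b at -0.33. Of the conjugation enzymes, 3 of 11 were higher and 8 lower, where Atg12 was at -0.23 and Atg16l2 at 0.23, or 0.51 without zinc replicate 3. Gabarapl2 had the smallest p of the ATG8 genes outside the members (-0.26).

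Later steps varied in both directions. Of 16 autophagy receptors, 11 were higher and 5 lower. Tax1bp1, a receptor that also restrains NF-kB signaling, was at 156, 157, 162 and 159 CPM with water and at 115, 134, 119 and 147 CPM with zinc, with no overlap (change -0.30, SE 0.137, adjusted p 0.485). Atl3, a receptor for endoplasmic reticulum, was at 0.26. Of 12 fusion genes, 6 were higher and 6 lower. Among them Epg5, a tether between autophagosome and lysosome, was at 11.4, 10.8, 10.6 and 7.12 CPM with water and at 15.8, 14.7, 14.8 and 13.9 CPM with zinc. Its groups did not overlap, and its change was 0.57 (SE 0.169, unadjusted p 0.0067, adjusted p 0.485) and also 0.57 without zinc replicate 3. Vamp8, a SNARE of autophagosome fusion and of secretion, was at -0.26. Of 18 lysosome genes, 7 were higher and 11 lower, with Tfeb, the regulator of lysosome genes, at 0.62 (SE 0.335) and the protease Ctsb at -0.28 (SE 0.154).

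Among 14 nutrient sensing genes, 7 were higher and 7 lower. Mtor, the kinase that holds ULK1 inactive, had a change of 0.33 (SE 0.156, adjusted p 0.487) with no overlap of the groups. Ddit4, a stress-induced inhibitor of that kinase, was at 266, 232, 220.4 and 261 CPM with water and at 56.4, 211, 59.0 and 211 CPM with zinc. All zinc libraries were below all water libraries, but zinc replicates 1 and 3 were far below zinc replicates 2 and 4 (change -0.87, SE 0.420, adjusted p 0.491). Of 8 tested LRRK2 and RAB genes, 4 were higher and 4 lower, with Vps35, of the retromer coat, at -0.24. Of 9 genes of lysozyme sorting and PC granules, 1 was higher, Clec16a at 0.27, and 8 were lower, with a median of -0.26. Without zinc replicate 3, 3 were higher and 6 lower, with a median of -0.18, and Nod2 (-0.22 with all libraries, 0.18 without) and Ripk2 (-0.33 and 0.07) turned. Lyz1 was at 135194, 140517, 213550 and 184230 CPM with water and at 154893, 133076, 142038 and 155220 CPM with zinc. Mmp7 was at 4091, 3964, 8627 and 5469 CPM with water and at 4476, 3539, 3850 and 4382 CPM with zinc. For both genes Milli-Q water replicates 3 and 4 were above every zinc library, and Milli-Q water replicates 1 and 2 were within the zinc range. Xbp1, the factor of the secretory cell program, was at 657, 617, 598 and 588 CPM with water and at 510.4, 515, 287 and 570.0 CPM with zinc. Its groups did not overlap, the change was -0.39 (SE 0.210, adjusted p 0.508), and it was -0.20 without zinc replicate 3. Of all 114 tested genes, 8 had groups that did not overlap, 3 higher and 5 lower, where 5.87% of all tested genes did.

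**Figure D5:**
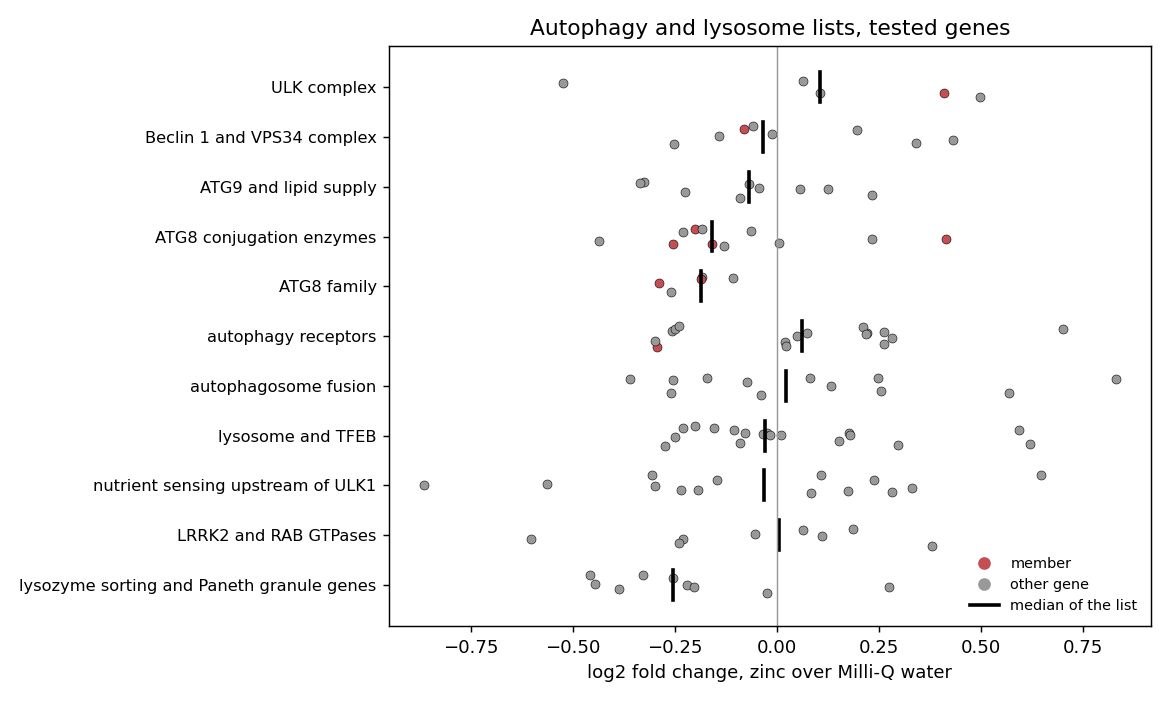
Log2 fold change, zinc over Milli-Q water, of each tested gene in the 11 pathway lists, with members in red, other genes in grey and a black line for the median of each list. The 5 genes of the ATG8 family all lie below 0, as did 5263 of all 10707 tested genes, and no gene in any list passed the test.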

How the data were processed

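RNA-seq libraries of sorted PCs were made with a stranded kit for polyadenylated RNA. The authors deposited 1 table of raw counts per Ensembl gene, not normalized. The submitters' processing notes name STAR 2.7.10a, FastQC 0.12.0, DESeq2 and mm39. The counter, its strand setting, the annotation release and the rule for reads with several matches are not stated. Symbols, coordinates and lengths came from GENCODE M39 (GRCm39), which held 54749 of the identifiers. The other 665 held 0.00443% of counts. Groups were taken from the sample titles.

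The main comparison of zinc with water used edgeR 4.0.16 in R 4.3.3 (quasi-likelihood, TMM factors), and its default filter kept 10707 genes. Adjustment followed Benjamini and Hochberg over these genes, with a threshold of 0.05. By this test 0 genes passed (smallest adjusted p 0.485), 1092 had an unadjusted p under 0.05, and DESeq2 1.42.0 called 4. In each of 28 library pairs, counts differed beyond sampling noise (chi-square of at least 6.37 per degree of freedom), and each library counted as 1 replicate. TPM used the Ensembl canonical transcript. A count of 0 was read as up to 3 counts. Intervals and such limits cover counting error or spread between libraries only. The tests were checked on simulated counts, with changes larger than those fitted for the members and without an outlying library. That check does not show whether changes as small as those of the members would be found.

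Alternatives were DESeq2 size factors, alpha-defensins and Lyz1 removed, no filter, a stricter filter (1 CPM in 4 libraries and 100 counts), DESeq2, limma-voom 3.58.1 with sample weights, the replicate block, a correction for length and GC content, and libraries left out. The joint omission of Milli-Q water 3 and 4 and zinc 3, and the alternatives for the counts at unadjusted p and of groups without overlap, were chosen after seeing the data. Genes named were the 10 members, from each pathway list the other gene with the smallest p in each direction, and for the 3 members of widest spread the 2 genes with the most similar profile. NF-kB and NRF2 targets, metallothioneins, Gabarap and Map1lc3a, and the motifs, were added after values had been seen. Members and lists were chosen with earlier results of these data known.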

Additional observations from a re-analysis of the deposited data

Results flagged for a closer look

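In groups of 4, the gap between an extreme library and its nearest neighbour was compared with the range of the group. Over 60 groups (the 4 libraries of each condition, for the 9 tested members and 21 named pathway genes), 2 stood out, where chance gives about 3, or 1 in 20. That rate assumes independent groups, but the 60 groups share 8 libraries and the pathway genes were named by their p. The rate does not measure how large a single departure was. Sqstm1 was at 231 CPM in zinc replicate 3, while the other zinc libraries were at 910.4 to 1013 CPM. Gabarapl1 was at 62.9 CPM in Milli-Q water 3, while the other water libraries were at 54.4 to 55.1 CPM.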

How the results depend on the processing

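No member passed under any of the 19 alternatives. Over all genes, DESeq2 called 4 and each of the other 18 called 0. Fold changes of members kept their sign in 167 of 171 comparisons. The exceptions were Sqstm1 without zinc replicate 3 (0.014, where single libraries left out gave -0.45 to 0.014) and without Milli-Q water 3 and 4 and zinc 3 (0.034), and Ulk1 in limma-voom (-0.039) and without those 3 libraries (-0.021). The number of members with an unadjusted p under 0.05 was 1 in the test as reported (Atg7) and 0 with alpha-defensins and Lyz1 removed, with DESeq2, with the length and GC correction, with the replicate block, with the block and that correction, without Milli-Q water 3 and 4, and without these and zinc 3. In limma-voom it was also 1, but the gene was Map1lc3b. It ran from 0 to 2 with 1 library left out, being 2 of 9 without zinc replicate 2 (Atg7 and Ulk1, beside 10.02% of all tested genes) or 4 (Atg7 and Gabarapl1, beside 17.9%). The number whose groups did not overlap ran from 1 to 3 with 1 library left out: 2 without Milli-Q water replicate 1 (Atg4b and Atg5, beside 8.62% of all tested genes) or 2 (Atg4b and Atg7, beside 11.2%) and 3 without zinc replicate 4 (Atg4b, Atg7 and Gabarapl1, beside 17.5%). The cause was not tested, beyond fewer libraries making an overlap less likely.

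Replicate numbers are shared by the groups, but same-numbered libraries did not deviate together (correlations of -0.03, 0.0082, 0.02 and 0.03), so the number was not taken as a pairing. With the replicate block 0 members were called, and adjusted p of the members ran from 0.595 to 0.817. TPM moved with the length used and with the total, as given above. Depth limits Lrrk2, where 0 counts allow up to 0.369 CPM, and the intervals of the fold changes are wide.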
